A study of Mus musculus with 6 samples.

Results

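The 10 genes described here import, store and export iron, break down haem or sense iron inside the cell. They are Tfrc, Slc11a2, Steap3 and Slc11a1 (import), Fth1 and Ftl1 (storage), Slc40a1 (export), Hmox1 (haem breakdown), and Aco1 and Ireb2 (iron sensing). They were chosen by name, with earlier results of the same comparison known, and were read by gene symbol from tables of 23282 lines per sample with 23238 distinct symbols. Each of the 10 had a mean log2 value of at least 1 over the 6 samples and so entered the test, which covered 11279 genes.

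The samples were CD4 T cells from spleen and lymph nodes of C57BL/6 mice, 3 from WT mice (Prkaa1fl/flCD4Cre-neg) and 3 from AMPK KO mice (Prkaa1fl/fl with CD4Cre). Prkaa1 encodes the α1 catalytic subunit of AMPK, the kinase that responds to a low energy charge. Both groups carried the floxed alleles, and the recombinase was driven by Cd4, so cells that never expressed Cd4 kept the gene. The methods of the study give the mice as female and 6 to 8 weeks old unless stated otherwise. Cells of both groups were rested for 1 h in RPMI 1640 and stimulated with anti-CD3 and anti-CD28 at 2 µg/mL. The stimulation time is 24 h in the sample labels and 6 h in the methods, so the time behind every value below is uncertain. RNA was read at its 3′ ends (QuantSeq), and the deposited values are log2(CPM + 1), where CPM is the normalised read count relative to library depth.

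Cells take up iron bound to transferrin through the transferrin receptor. The iron is reduced in the endosome and moved into the cytosol, where it is used, put into ferritin or sent out through ferroportin. Macrophages of the spleen receive a second stream of iron from the haem of old red cells, which haem oxygenase opens. A pair of iron regulatory proteins binds a hairpin, the iron-responsive element, in several of these mRNAs when iron is scarce. Binding in the 5′ untranslated region (UTR) blocks translation, whereas binding in the 3′ UTR protects the mRNA of the transferrin receptor from decay.

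The hairpins are shown because the iron regulatory proteins act through them, on translation from a 5′ UTR and on mRNA decay in the 3′ UTR of Tfrc. Other ways in which these genes may answer to iron were not searched for. A pattern search in GENCODE vM21 transcripts (GRCm38) looked for a C, 5 bases, CAGTGN and 5 more bases that pair with the first 5, G-U pairs allowed, on the transcript strand only. It matched 4 of the 10 genes. Among all genes, 0.146% of 21181 with a 5′ UTR and 0.66% of 21824 with a 3′ UTR held a match. Below, 29 bases are given 5′ to 3′ for each match, with the bulged C and the 6-base loop in capitals. The 3 matches in 5′ UTRs were at chr19:9982732-9982760 on the plus strand (Fth1), chr7:45459779-45459807 on the minus strand (Ftl1) and chr1:45925465-45925493 on the minus strand (Slc40a1).
Fth1: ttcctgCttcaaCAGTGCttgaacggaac
Ftl1: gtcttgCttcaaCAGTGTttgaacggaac
Slc40a1: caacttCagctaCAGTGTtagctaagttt
The 4 matches in the 3′ UTR of Tfrc were on the plus strand of chromosome 16, at chr16:32631219-32631247, chr16:32631598-32631626, chr16:32631663-32631691 and chr16:32631710-32631738, in this order.
Tfrc site a: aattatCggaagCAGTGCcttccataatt
Tfrc site b: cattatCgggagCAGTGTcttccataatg
Tfrc site c: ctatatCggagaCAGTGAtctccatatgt
Tfrc site d: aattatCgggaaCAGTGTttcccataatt
The 2 ferritin genes share the upper stem arm ttcaa, and the Tfrc hairpins all begin their upper stem with gg. A gene without a match only lacks these letters in its annotated UTRs.

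The libraries held 9575096 to 10168121 reads on genes in WT and 10515155 to 11185360 in AMPK KO, recovered from the steps of the deposited values. The ribosomal RNA precursor Rn45s accounted for 22.4% ± 2.21 of these reads in WT and for 9.89% ± 1.24 in AMPK KO (SD, n = 3). Prkaa1 itself had log2 values of 4.64, 5.24 and 4.86 in WT and 4.08, 4.72 and 4.67 in AMPK KO, so its groups overlapped (log2 fold change −0.43, standard error 0.25, limma adjusted p = 0.357). Its difference was −0.22 when AMPK KO sample 1 and −0.26 when WT sample 2 was left out. A 3′ tag may lie outside the deleted part, so this level does not check the labels. Xist, transcribed from the inactive X chromosome of females, was at 0.93 to 2.16 in WT and at 7.55 to 7.92 in AMPK KO on the log2 scale. Ddx3y, a Y-linked gene, was at 8.44 to 8.53 and at 6.93 to 7.28. Ddx3y was thus present in both groups and Xist was low in WT, although the methods give female mice. Each AMPK KO sample held both transcripts, and whether it mixed cells of both sexes was not tested. A difference in the sex of the animals and the genotype therefore cannot be told apart in any comparison below.

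Transcripts of both ferritin chains (Fth1, Ftl1), of the iron exporter Slc40a1 and of haem oxygenase 1 (Hmox1) were higher in AMPK KO than in WT samples, as were those of the transferrin receptor and of Slc11a1. With limma and an adjusted p under 0.05, 6 of the 10 genes were higher and 0 were lower (1 gene, Steap3, was lower at an unadjusted p under 0.05). Over all tested genes 5.65% were called, 2.54% as higher and 3.10% as lower. The 4 others were Slc11a2, Steap3, Aco1 and Ireb2. Values of the 2 groups did not overlap for 8 of the 10 genes (6 higher and 2 lower), against 25.6% of all tested genes. The median log2 fold change of the 10 genes was 0.66 and that of all tested genes 0.02. Since the genes were picked with this comparison known, these counts describe them and test nothing. An exact two-sided permutation test of 3 samples against 3 cannot give a p below 0.1, the value it gave to each of the 8 separated genes.

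**Figure D1:**
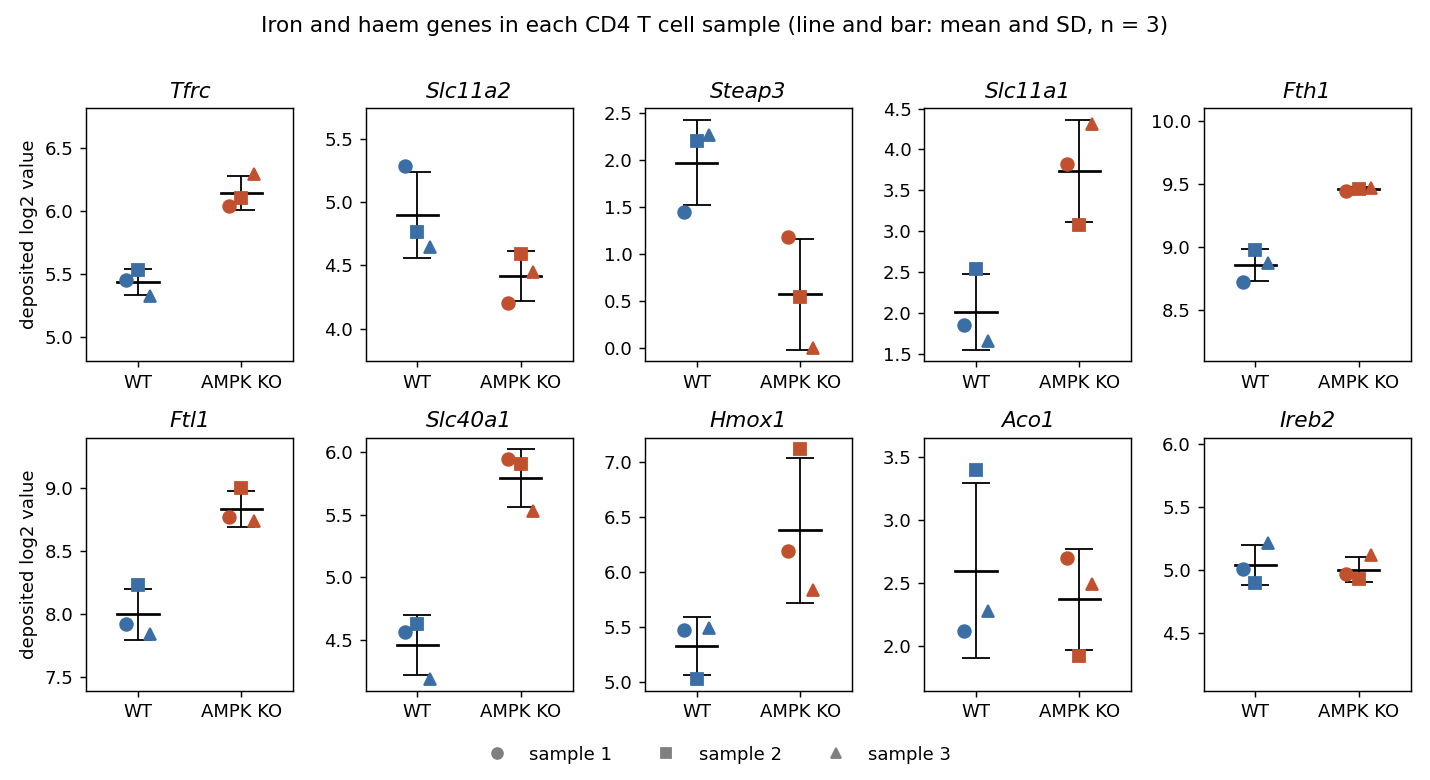
Deposited log2 value (vertical axis, a separate range for each gene) of the 10 iron and haem genes in the 3 WT and 3 AMPK KO samples, with a line at the mean and bars of 1 SD (n = 3). The groups lie apart for 8 genes and overlap for Aco1 and Ireb2.

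Tfrc, the receptor that carries transferrin-bound iron into the cell, lies on chromosome 16 (GRCm38 chr16:32608920-32632794, plus strand). On the log2 scale it had 5.45, 5.53 and 5.33 in WT (346 to 452 reads) and 6.03, 6.10 and 6.29 in AMPK KO (727 to 921 reads). Every AMPK KO sample lay above every WT sample, and the nearest pair were 0.50 apart. The group means were 5.43 ± 0.10 and 6.14 ± 0.13 (SD, n = 3), a 1.63-fold rise (95% interval 1.27 to 2.11, limma adjusted p = 0.0286). The call was lost without WT sample 1, WT sample 3, AMPK KO sample 1 or AMPK KO sample 3, where the adjusted p reached up to 0.137 in limma.

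Slc11a2 encodes DMT1, which moves ferrous iron from the endosome into the cytosol. Its log2 values were 5.28, 4.77 and 4.65 in WT (213 to 350 reads) and 4.2, 4.59 and 4.45 in AMPK KO (206 to 248 reads). The groups were separated by only 0.06, and WT sample 1 stood above the rest. The log2 fold change of −0.49 had a 95% interval of −1.0 to 0.03 and did not pass the threshold (limma adjusted p = 0.267). Without WT sample 1 it was −0.29. The gene overlaps Gm5475 on the other strand, and the strand setting of the counting is not given in the sources used here.

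Steap3 encodes the endosomal reductase that turns ferric into ferrous iron before DMT1 takes it. It was close to the limit of detection, with 16, 36 and 34 reads in WT and 15, 5 and 0 in AMPK KO. The log2 values were 1.45, 2.20 and 2.28 against 1.18, 0.55 and 0.00, without overlap. The log2 fold change was −1.40 (standard error 0.47, limma adjusted p = 0.0986), and the deposited scale understates changes at such levels. It stayed negative and past no threshold in all 13 alternative fits that gave it a value, from −1.11 to −3.28.

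Slc11a1 encodes NRAMP1, a metal transporter of the phagosome membrane known from macrophages and neutrophils. Its log2 values were 1.85, 2.54 and 1.65 in WT and 3.82, 3.08 and 4.32 in AMPK KO. These rest on 19 to 48 reads in WT and on 80 to 225 in AMPK KO. AMPK KO sample 3 was the highest and AMPK KO sample 2 the lowest of its group, and all 3 lay above WT. The rise was 3.31-fold (95% interval 1.83 to 5.98, limma adjusted p = 0.0228), the largest rise of the 10 genes with all 6 samples on the deposited scale. Without WT sample 1, WT sample 3, AMPK KO sample 1 or AMPK KO sample 3 the adjusted p in limma rose to 0.0816 to 0.109. With no filter on low values it was 0.0845, and with voom on the reads it was 0.0602.

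Fth1 encodes the ferritin heavy chain, which oxidises iron as it enters the ferritin shell (chr19:9980598-9985098, plus strand). The log2 values were 8.72, 8.98 and 8.87 in WT, from 3885 to 5035 reads, and 9.45, 9.46 and 9.47 in AMPK KO, from 7563 to 8428 reads. The AMPK KO samples were almost equal (9.46 ± 0.01, SD, n = 3), whereas WT samples spread over 8.86 ± 0.13 (SD, n = 3). The rise was 1.52-fold (95% interval 1.25 to 1.85, limma adjusted p = 0.0171). In limma fits without WT sample 1, WT sample 3 or AMPK KO sample 1, the adjusted p was 0.0909 to 0.126.

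Ftl1 encodes the ferritin light chain, which helps the iron core to form (chr7:45457944-45459884, minus strand). It had 7.93, 8.23 and 7.84 on the log2 scale in WT, from 2022 to 2992 reads. In AMPK KO the log2 values were 8.77, 9.0 and 8.74, from 5069 to 5472 reads. AMPK KO sample 2 was the highest, and the lowest AMPK KO sample exceeded the highest WT sample by 0.51. The 1.78-fold rise (95% interval 1.43 to 2.22) passed the threshold (limma adjusted p = 0.00522). It was just missed when WT sample 1 or WT sample 3 was left out (limma adjusted p = 0.0634 and 0.0624).

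The light chain rose somewhat more than the heavy chain. Within each sample, the log2 value of Fth1 exceeded that of Ftl1 by 0.80, 0.75 and 1.03 in WT and by 0.68, 0.47 and 0.73 in AMPK KO, given as a description with no test. Both ferritin genes have processed pseudogenes in the annotation (Fth-ps2, Fth-ps3, Ftl2-ps, Ftl1-ps2) that the tables do not list. How reads shared with these copies were assigned is not given in the sources used here, so the split of reads among copies is uncertain. Ftl1 also overlaps Gm22133 on its own strand and Gm10252 on the other, and neither is in the tables.

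Slc40a1 encodes ferroportin, the only known exporter of cellular iron, which is abundant in macrophages that recycle red cells. It lies at chr1:45908068-45926523 on the minus strand. Its log2 values were 4.57, 4.63 and 4.19 in WT (152 to 237 reads) and 5.94, 5.90 and 5.53 in AMPK KO (537 to 718 reads). The groups stood 0.90 apart, the widest gap of the 10 genes, and sample 3 was the lowest in each group. The rise was 2.52-fold (95% interval 1.84 to 3.46, limma adjusted p = 0.00262). It was past the threshold in all 14 alternative fits, with log2 fold changes from 1.20 to 1.46 and adjusted p values in limma from 0.00109 to 0.0329.

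Hmox1 encodes haem oxygenase 1, the inducible enzyme that opens the haem ring and releases its iron. Its log2 values were 5.48, 5.03 and 5.49 in WT (316 to 401 reads) and 6.19, 7.11 and 5.83 in AMPK KO (666 to 1477 reads). AMPK KO sample 2 stood well above the other two, both of which lay nearer to the highest WT sample than to it. The group means were 5.33 ± 0.26 and 6.38 ± 0.66 (SD, n = 3), a 2.07-fold rise (95% interval 1.39 to 3.08, limma adjusted p = 0.0352). Without AMPK KO sample 2 the log2 fold change was 0.68 instead of 1.05, and its adjusted p in limma stayed under the threshold. Leaving out any 1 WT sample, or AMPK KO sample 1, ended the call in limma, with adjusted p values of 0.0822 to 0.131. It was lost too without the filter on low values (0.121) and with voom on the reads (0.0631).

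The 2 iron regulatory proteins, which bind the hairpins above, showed no separation. Aco1, the cytosolic aconitase that becomes IRP1 when it loses its iron-sulphur cluster, had log2 values of 2.13, 3.39 and 2.28 in WT and 2.70, 1.92 and 2.49 in AMPK KO. These came from 30 to 95 reads, and WT sample 2 was the highest. The log2 fold change was −0.23 (95% interval −1.13 to 0.68), and without WT sample 2 it was 0.17. Ireb2, which encodes IRP2, a protein degraded when iron is plentiful, had 5.01, 4.89 and 5.21 in WT and 4.96, 4.93 and 5.12 in AMPK KO, from 287 to 401 reads. Its log2 fold change of −0.04 had a 95% interval of −0.47 to 0.40, or 0.72 to 1.32 as a fold. The exact two-sided permutation p was 0.8 for Aco1 and 0.7 for Ireb2.

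**Figure D2:**
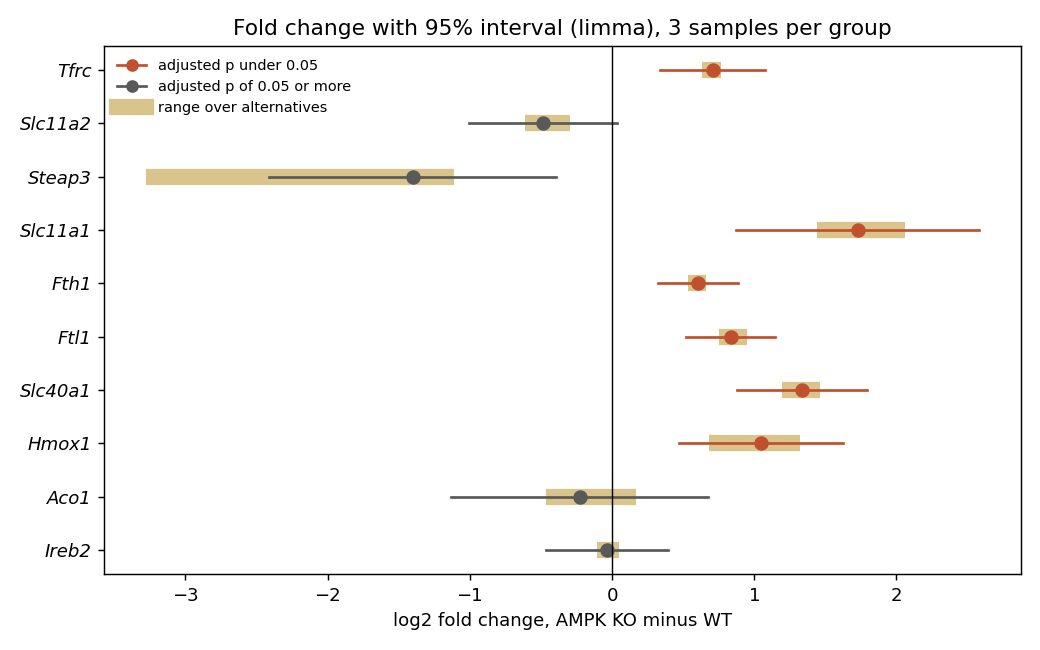
Log2 fold change of each gene, AMPK KO minus WT (horizontal axis), with its 95% interval from limma (thin line, 3 samples per group) and the range over the alternative fits (broad band). The intervals of 6 genes lie above 0, that of Steap3 lies below 0 without an adjusted p under 0.05, and those of Slc11a2, Aco1 and Ireb2 include 0.

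By the position of the hairpin, the 4 genes with a match all had higher transcript levels in AMPK KO. This held for the 3 with the match in the 5′ UTR, at log2 fold changes of 0.60 (Fth1), 0.83 (Ftl1) and 1.33 (Slc40a1), and for Tfrc, with its matches in the 3′ UTR, at 0.71. The 4 changes were not tested against each other. These are levels of mRNA, and the translation that the 5′ hairpins act on was not measured here.

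The same fit was read for 83 other genes of iron and haem biology, listed by function. All 83 were in the tables and 65 were tested, of which 3 were higher, 1 was lower and 61 did not pass an adjusted p of 0.05 in limma. That is near the 5.65% called over all tested genes. Their median log2 fold change was 0.19, with 42 means higher and 23 lower in AMPK KO, and this median was 0.07 when WT sample 1 and 0.11 when AMPK KO sample 1 was left out, and 0.12 with scaling to the reads outside Rn45s. Leaving out WT sample 1 or AMPK KO sample 1 gave a count of 0, leaving out WT sample 3 gave 1, and leaving out AMPK KO sample 2 gave 8. Without the first 2 of these libraries, 12 and 9 genes of the list had an unadjusted p under 0.05 in limma, compared with 15 with all samples.

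Among 14 genes of uptake and trafficking, 8 were tested. Trf, which encodes transferrin, had log2 values of 4.40, 4.81 and 4.85 in WT and 5.95, 6.10 and 5.48 in AMPK KO, and rose by 1.16 (standard error 0.22, limma adjusted p = 0.0079). The call was lost without WT sample 1 or AMPK KO sample 1 (limma adjusted p = 0.07 and 0.0629). Ltf, which encodes lactoferrin, an iron-binding protein of neutrophil granules, fell by 1.54 on the log2 scale (standard error 0.38, limma adjusted p = 0.0285). Its values were 3.03, 4.02 and 3.66 in WT and 1.64, 2.21 and 2.23 in AMPK KO, and leaving out any 1 WT sample or AMPK KO sample 1 ended the call. The summed level of neutrophil markers was 791 to 902 in WT and 525 to 763 in AMPK KO, and most of it came from S100a8 and S100a9. Of 9 tested neutrophil markers 5 had lower and 4 had higher means in AMPK KO (Retnlg by 0.59, Mmp8 by 0.49, Mmp9 by 0.27 and Cxcr2 by 0.16), 1 was called lower (Ngp) and 0 were called higher. Elane was at 0 in all AMPK KO samples. The part of neutrophil RNA in the fall of Ltf was not tested. Snx3, a sorting protein for the transferrin receptor, had the largest difference of the group (1.58) with overlapping samples and an adjusted p of 0.134 in limma. Tfr2, Steap1, Steap2 and Steap4 were listed at 0 in all WT samples.

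In ferritin loading and turnover, Bola2, a partner in iron-sulphur cluster transfer, rose from 6.25, 6.19 and 6.45 to 6.86, 7.24 and 6.70 on the log2 scale (limma adjusted p = 0.0431). The call remained in only 1 of the 6 fits with a library left out, that lacking AMPK KO sample 3, and was lost with no filter, with voom and with scaling outside Rn45s (limma adjusted p = 0.0558 to 0.0879). Pcbp1, which delivers iron to ferritin, differed by 0.03 (95% interval from limma −0.27 to 0.33). Ncoa4, the receptor that takes ferritin to the lysosome, was named after its values were seen and differed by 0.56 with overlapping groups (limma adjusted p = 0.317). The chaperone gene Glrx3 and mitochondrial ferritin (Ftmt) were listed at 0 in all 6 samples. Such a 0 may come from the annotation or the counting, which are not given, and so does not show absent RNA.

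Haem transport and breakdown held 12 tested genes, of which 9 had higher and 3 had lower means in AMPK KO, 1 was called and 6 had groups that did not overlap (over all tested genes, 5.65% were called and 25.6% did not overlap). Pgrmc1, a haem-binding membrane protein, rose by 1.28 (standard error 0.30, limma adjusted p = 0.0237), from 3.43, 3.11 and 3.5 in WT to 5.0, 4.06 and 4.82 in AMPK KO on the log2 scale. Its call was lost without WT sample 1, WT sample 3, AMPK KO sample 1 or AMPK KO sample 3. The largest fall was that of Hp, the plasma scavenger of haemoglobin, at −0.75 with overlapping groups (limma adjusted p = 0.342). The 5 uncalled genes whose groups did not overlap were picked after their values were seen. Flvcr1, a haem exporter, differed by 0.79 (limma adjusted p = 0.0623), and Lrp1, the receptor for haem bound to haemopexin, by 1.03 (limma adjusted p = 0.062). Blvrb, a biliverdin reductase that acts after haem oxygenase, differed by 0.71 (limma adjusted p = 0.134), and Cd163, the macrophage receptor for haemoglobin bound to haptoglobin, by 0.63 (limma adjusted p = 0.264). Bach1, the haem-sensing repressor of Hmox1 and of the ferritin genes, had 5.55, 5.12 and 5.68 in WT and 4.61, 5.11 and 4.80 in AMPK KO, so that the difference was −0.61 (limma adjusted p = 0.126). The other enzymes of haem breakdown, Hmox2 and Blvra, each differed by 0.14 with overlapping groups.

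No gene of haem synthesis (10 tested), of mitochondrial iron and iron-sulphur clusters (16), of cytosolic iron-sulphur clusters (8), of iron sensing (2) or of the other mRNAs with an iron-responsive element (5) passed the adjusted threshold in limma. At an unadjusted p under 0.05, each of these 5 groups held 1 gene. Tmem14c, which moves haem precursors into the mitochondrion, came nearest with 0.55 (limma adjusted p = 0.0721) and groups that did not overlap. In the mitochondrial group the highest value was 0.99 for Iscu, the scaffold of cluster assembly, with overlapping groups. In the cytosolic group they ran from −0.36 for Mms19 to 0.54 for Nubp2. Cp, the ferroxidase ceruloplasmin, differed by 1.16 at a low level (limma adjusted p = 0.134) and Fbxl5, which marks IRP2 for degradation, by 0.16. Among the other mRNAs with an iron-responsive element, Cdc14a had the lowest value (−0.67).

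**Figure D3:**
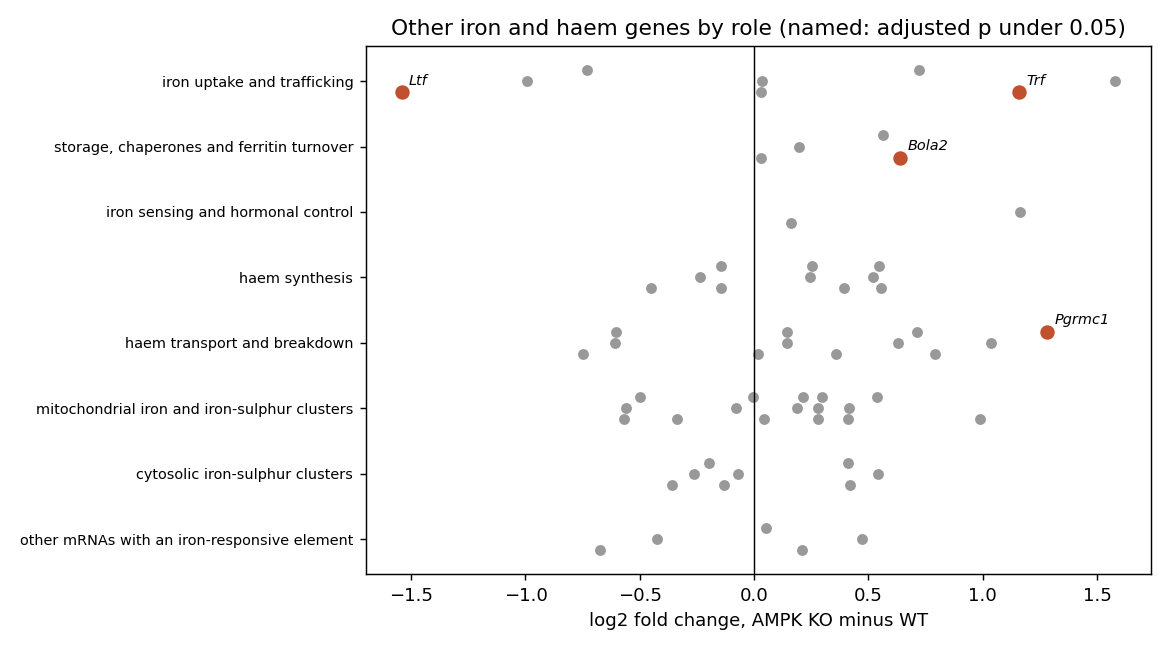
Log2 fold change, AMPK KO minus WT (horizontal axis), of the 65 other tested iron and haem genes, 1 point per gene, in rows by function. Of these genes 3 were called higher and 1 lower (large named points), and the other 61 lie on both sides of 0.

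Genes of macrophages, cells that handle much of the body's iron, were higher in the same samples. The study describes isolation of CD4 T cells with magnetic microbeads or a cell sorter and a check of purity after the beads (MACS), which allowed for a minority of other cells. Of 22 macrophage markers 19 were tested, all 19 had higher means in AMPK KO and 11 were called higher. The median over the 19 was 1.10 on the log2 scale. Their summed level, in CPM, was 792 to 894 in the WT samples and 1651.5, 2517 and 1381 in AMPK KO samples 1, 2 and 3, so the groups did not overlap. The most abundant were Apoe, Csf1r and Vcam1, and Mertk was at 0 in all WT samples. C1qa, a complement gene of tissue macrophages, had log2 values of 5.58, 5.19 and 5.04 in WT and 6.92, 8.04 and 6.42 in AMPK KO. Spic, the transcription factor of red pulp macrophages, rose by 0.68 (limma adjusted p = 0.0447). The part of macrophage RNA in the rises of Slc40a1, Hmox1, Slc11a1, Fth1, Ftl1, Tfrc, Trf and Pgrmc1 was not tested. In bulk RNA, fewer cells of a type and less RNA per cell cannot be told apart.

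Most T cell markers had lower means in AMPK KO (median log2 fold change −0.32), but 9 of the 15 were not called. The summed level of 15 T cell genes was 4170 to 4428 in WT and 3262 to 3820 in AMPK KO, 12 of the 15 had lower means, 5 were called lower (Cd3e, Cd3g, Cd28, Tcf7 and Il7r) and 1 was called higher (Thy1). Cd3d, among the most abundant, had log2 values of 9.54, 9.35 and 9.46 in WT and 9.01, 9.53 and 8.88 in AMPK KO. The T cell identity given in the labels was thus met by high Cd3d, Cd2 and Il7r in all 6 samples, beside transcripts of other cells.

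The samples also held red cell transcripts. Hba-a1, an α-globin gene, had log2 values of 11.48, 11.19 and 11.22 in WT and 10.86, 11.66 and 10.42 in AMPK KO. Of 7 tested erythroid markers 0 were called in limma, also at an unadjusted p under 0.05, and their summed level was 3981 to 4589 in WT and 2886 to 5556 in AMPK KO. AMPK KO sample 2, the highest in Hba-a1, was also the highest in Hmox1 and in the summed macrophage markers.

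Within the AMPK KO group the genes did not share an order. Hmox1 and Ftl1 were highest in sample 2, then sample 1, then sample 3, the order of C1qa, Csf1r and the summed macrophage markers. Slc11a1 was highest in sample 3 and lowest in sample 2, the reverse of the order of the summed markers, and Lyz2 had the order of Slc11a1 (4.30, 3.31 and 4.41 in AMPK KO samples 1, 2 and 3). Tfrc was highest in sample 3, as were the macrophage markers Cd14 and Sirpa, although the summed markers were lowest there. Of the 22 macrophage markers, 15 were highest of the group in sample 2. Fth1 differed by only 0.02 across the group. The part of macrophage RNA in these orders was not tested. With 3 samples such orders are a description.

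**Figure D4:**
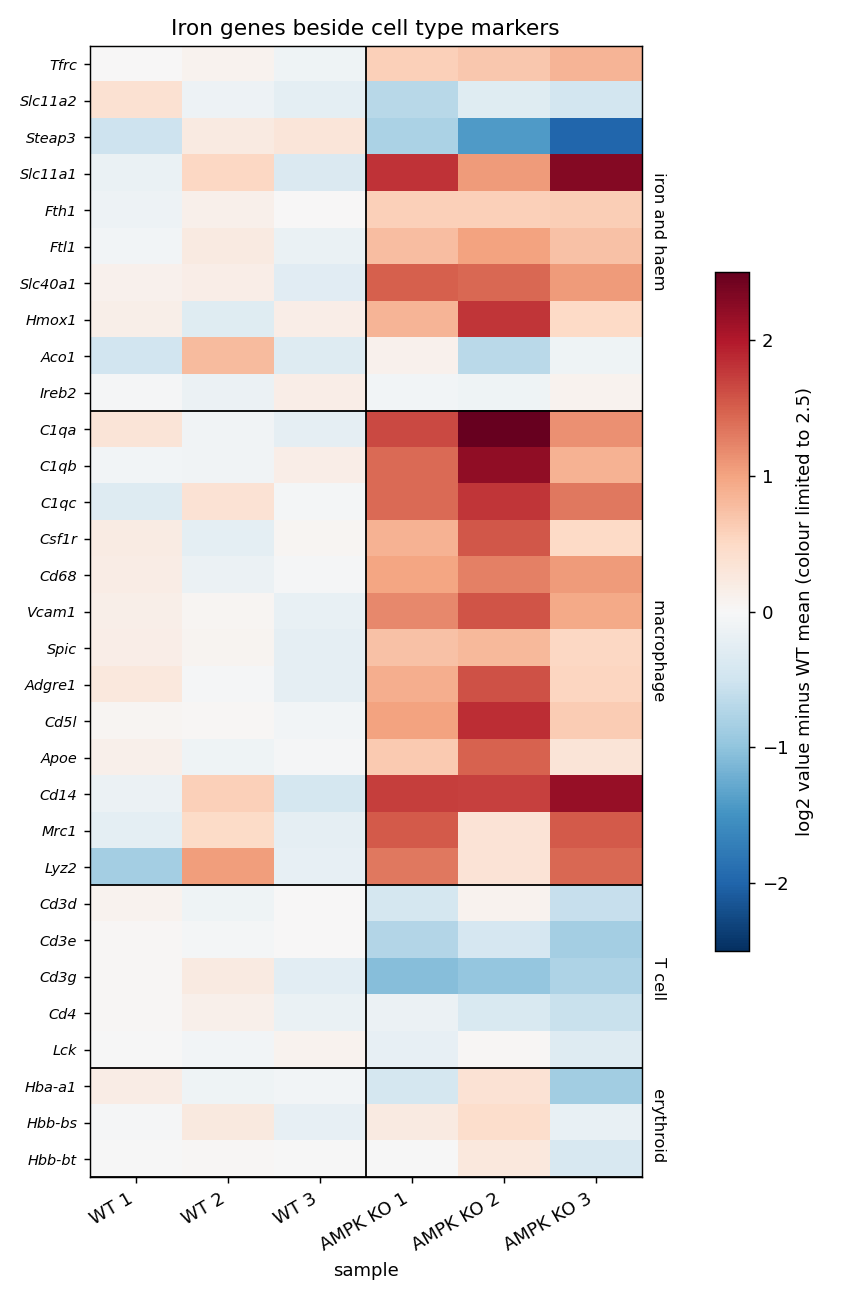
Log2 value of each gene minus its WT mean (colour, limited to 2.5 in either direction) in each of the 6 samples (columns), for the iron and haem genes and for some markers of macrophages, T cells and red cells (rows). The markers are a chosen part of each list. Thy1, Lat, Cd6 and Hba-a2, which had higher means in AMPK KO, are among those not shown. The macrophage rows are warm in the 3 AMPK KO columns, darkest for C1qa in sample 2, whereas most T cell rows are cool there.

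Tfrc is also known as a gene that T cells raise on activation, so the early activation genes are given beside it. Of 10 such genes 2 were called higher, Cd44 with a log2 fold change of 1.17 and Tnfrsf9 with 0.72, and 0 lower. The 10 means were 5 higher and 5 lower, and the median was 0.12. The uncalled genes ran from Myc at −0.88 and Egr2 at −0.52 through Il2ra at −0.23, Cd69 at −0.18, Tnfrsf4 at −0.02 and Nr4a1 at 0.26 to Slc3a2 at 0.43 and Slc7a5 at 0.84. The summed level of all 10 was 1059 to 1371 in WT and 1236 to 1493 in AMPK KO, with overlap, and the part of activation in the rise of Tfrc was not tested. Of other cell types, B cell markers had 0 of 9 called and sums of 295 to 325 and 291 to 350. At an unadjusted p under 0.05, 1 of the 9 was counted in limma. Dendritic cell markers had 0 of 7 called (1 at an unadjusted p under 0.05 in limma), with sums of 39.9 to 43.3 and 52.4 to 75.5. Plasma cell markers had 1 of 6 called (Jchain, 2.60), with sums of 197 to 247 and 511 to 545.

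For the 3 genes with the smallest p, the genes most alike over the 6 samples were named by Pearson's r among 6143 genes with a mean log2 value of at least 4. For Slc40a1 these were Igsf6 (0.993), Gnb1 (0.990) and Ctsb (0.985), for Ftl1 they included Uqcrb (0.992) and Rpl34 (0.991), and for Fth1 Gabarapl2 (0.999), H2afz (0.996) and Tnfaip2 (0.994). Each r comes from 6 points in 2 groups, is the highest of many and mostly follows the difference between the groups, so it is given as a description.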

How the data were processed

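The authors had the libraries (Lexogen QuantSeq, 500 ng of total RNA) sequenced by a company (Ebiogen), normalised the reads (TMM, then CPM) and deposited them as log2 of the value plus 1. The submitters' processing notes name Bowtie2, bedtools and mm10. The annotation and the counting settings are not given in the sources used here. Reads were recovered from the steps of the values, since 100% of values up to 100 reads lay within 0.1 of a whole number. The deposited log2 values were tested with limma 3.58.1 (R 4.3.3, trend, genotype only, two-sided, Benjamini-Hochberg, threshold 0.05) for the 11279 genes whose mean reached 1. The code was tested on simulated data. The study calls the samples biologically independent but does not say whether each was 1 mouse, and the p values measure the spread between these samples. Squared differences between samples of a group were, at the median over 10543 genes, 9.53 to 23.7 times those from counting noise. Of the 23282 lines, 79 carry 35 repeated symbols, none of them a gene named here.

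The genes described, the lists and the naming rule (all 10 genes, called genes of the wider list, the extremes of each function, the most abundant markers and the genes most alike) were chosen with earlier results of these data known. Alternatives were quantile normalisation, scaling outside Rn45s, another pseudocount (0.25), no filter, a minimum of 3, robust spread, voom on recovered reads, a replicate block and leaving out each library. Older symbols were used where the tables list those (Mfsd7b for Flvcr1). Python 3.11.15, numpy 2.4.6, pandas 2.3.3 and matplotlib 3.10.9 were used. A few genes that this rule names are not reported here.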

Additional observations from a re-analysis of the deposited data

How the results depend on the processing

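Over all tested genes 637 were called, 287 higher and 350 lower. The number was 308 with no filter and 127 to 1246 with each library left out. Scaling to the reads outside Rn45s gave 722 genes, 235 higher and 487 lower. Of the 10 iron genes, 6 were called, and 1 to 6 with each library left out. Of the 65 other iron genes, 4 were called, 1 with no filter and 0 to 8 with each library left out. Without WT sample 1 or WT sample 3 the only call among the 10 genes was Slc40a1. With a library left out, the direction reversed for 2 uncalled genes, Aco1 (log2 fold change −0.46 to 0.17, positive when WT sample 2 was left out) and Ireb2 (−0.11 to 0.051, positive when WT sample 3 or AMPK KO sample 2 was left out, 0.0023 for the latter). The other 8 of the 10 genes kept their direction in all alternative fits that gave them a value. The cause of these shifts was not tested. The replicate numbers in the labels are not said to pair the samples. Same-numbered deviations from the group means correlated at −0.08, −0.32 and −0.16 over 11279 genes. With 3 samples per group these deviations depend on one another, so they cannot decide whether samples were paired. With the replicate block, 102 genes were called over all genes, 2 of the 10 (Slc40a1 and Ftl1) and 0 of the 65 (12 at an unadjusted p under 0.05 in limma). Depth limits Steap3, Aco1 and Slc11a1, each with a library under 35 reads.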
